A study of Hormonema carpetanum with 4 samples.

Results

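Homocitrate synthase (gene06190, symbol LYS20) and 3-isopropylmalate dehydrogenase (gene06698) were followed across the 4 libraries of a study of the mould Hormonema carpetanum, the source of enfumafungin, an antifungal triterpene glycoside. They are 2 of the 10951 genes in the deposited table and were taken by their gene numbers, having been chosen because they stood far above the wild type in the mutant at day 14; that difference is therefore given as a description. The study set out to raise enfumafungin output by mutagenesis and by changing the fermentation. RNA came from mycelium in fermentation broth. The groups were the mutant ENF-5-29 at day 18 and 19 °C, the same mutant at day 18 and 25 °C, the mutant at day 14, and the wild type ATCC 74360 at day 14, with 1 library in each. The day 14 titles give no temperature, and the extraction protocol names 18 days for both strains, so the titles were followed. ENF-5-29 is a single mutant strain whose altered loci were not examined, and strain and culture cannot be told apart with 1 culture per group.

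Fungi make lysine from acetyl-CoA and 2-oxoglutarate through alpha-aminoadipate, a route that animals lack and that differs from the diaminopimelate route of plants and most bacteria. Homocitrate synthase joins acetyl-CoA to 2-oxoglutarate and is the committed step, and in yeasts and moulds it is inhibited by lysine. Leucine is built from the valine precursor 2-ketoisovalerate and acetyl-CoA, and 3-isopropylmalate dehydrogenase carries out the oxidation that leads to the keto acid of leucine. Both routes lengthen a keto acid by one carbon with the same chemistry, and their dehydrogenases are relatives of the isocitrate dehydrogenase of the citrate cycle. In yeast, transcription of both pathways answers to the general amino acid control factor Gcn4, and that of leucine synthesis also to Leu3.

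The values are TPM, a length-scaled share of each library out of a total of 1000000, so a gene's TPM also depends on all others, and fewer cells of a kind and less RNA per cell cannot be told apart. Read depth is lost in this unit, so counting error cannot be stated and no interval is given. With 1 library per group there is no replicate check and no p-value. Ratios are differences of log2 of TPM plus 1, and a gene was called at 2-fold when it reached 1 TPM in either library of the pair. From 8569 to 8942 genes reached 1 TPM, depending on the library. The top 20 genes accounted for 14.1% to 16.1% of the TPM in the mutant libraries and for 23.5% in the wild type. Over all 9272 genes tested, the median log2 ratio of mutant over wild type at day 14 was 0.64. Rescaling by the median ratio moved every log2 ratio of plain TPM by -0.78. With 1 TPM added, as in the ratios given here, the shift varied by gene. Homocitrate synthase went from 4.94 to 4.19 and homoaconitase (gene08231) from 3.88 to 3.30.

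Homocitrate synthase (gene06190) stood at 207 TPM in the mutant at day 18 and 19 °C, 376 TPM in the mutant at day 18 and 25 °C, 328 TPM in the mutant at day 14 and 9.77 TPM in the wild type. The 3 mutant libraries were all far above the wild type and lay within a 2-fold range of each other. The level exceeded that of 92.8% to 95.7% of all genes in the mutant libraries, and that of 51.5% in the wild type. The mutant level at day 14 was 33.6 times that of the wild type, and the day 18 levels, which also differ from it in day, were 21.1 times (19 °C) and 38.5 times (25 °C) the wild-type value. The log2 ratio at day 14 was 4.94, with 80 of the 9272 tested genes above it.

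3-Isopropylmalate dehydrogenase (gene06698) stood at 228 TPM in the mutant at day 18 and 19 °C, 119 TPM in the mutant at day 18 and 25 °C, 697 TPM in the mutant at day 14 and 24.5 TPM in the wild type. It was again lowest in the wild type, but its mutant libraries were spread widely, with day 14 highest. Its level exceeded that of 87.3% to 97.8% of all genes in the mutant libraries and of 69.2% in the wild type. At day 14 the mutant had 28.5 times the wild-type level, whereas the day 18 libraries had 9.30 times (19 °C) and 4.86 times (25 °C). The log2 ratio at day 14 was 4.77, and 98 tested genes lay above it. In TPM, 3-isopropylmalate dehydrogenase was 1.10 times homocitrate synthase in the mutant at day 18 and 19 °C, 0.316 times at day 18 and 25 °C, 2.12 times in the mutant at day 14 and 2.51 times in the wild type.

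**Figure D1:**
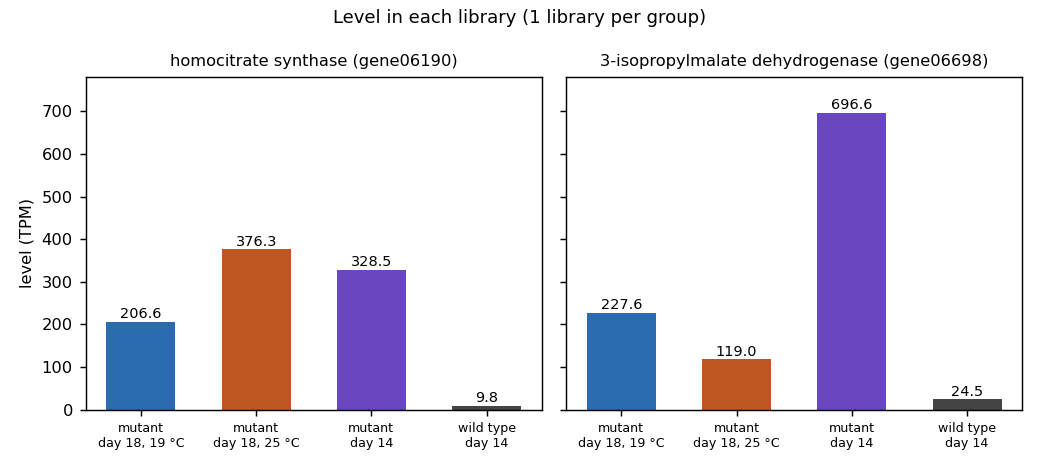
Level in TPM (vertical axis, from 0) of homocitrate synthase (left) and 3-isopropylmalate dehydrogenase (right) in the 4 libraries, 1 bar per library with no error because each group has 1 library. Both are lowest in the wild type, at 9.77 and 24.5 TPM; the first is highest in the mutant at day 18 and 25 °C (376 TPM) and the second in the mutant at day 14 (697 TPM).

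The rest of the lysine route was read from 8 genes that carry its KEGG orthology numbers, homocitrate synthase among them. In the mutant at day 14, 7 of the 8 stood at least 2-fold above the wild type and 0 were lower, beside 40.7% higher and 14% lower among all tested genes. At 4-fold, 5 of 8 were higher, where 18.1% of all tested genes were. The list's median log2 ratio was 2.58, beside 0.64 for all genes. Homocitrate synthase belongs to the list and was chosen on this contrast, and the list was drawn up with the contrast known.

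Along the route, homoaconitase (gene08231), which acts on homoaconitate, had 26.8 TPM in the mutant at day 14 and 0.88 TPM in the wild type. The wild-type value was under 1 TPM, and the mutant libraries of day 18 had 27.2 TPM (19 °C) and 39.6 TPM (25 °C). Homoisocitrate dehydrogenase (gene09531), the next enzyme, had 268 TPM in the mutant at day 14 and 10.3 TPM in the wild type, 26.04 times as much. The log2 ratios of homocitrate synthase, homoaconitase and homoisocitrate dehydrogenase, at 4.94, 3.88 and 4.57, were the largest 3 of the list.

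The other genes described for the route had smaller ratios. The 2-aminoadipate transaminase candidate (gene07552), whose best hit is an aromatic amino acid aminotransferase, had 30.6 TPM in the mutant at day 14 and 20.08 TPM in the wild type, and its log2 ratio of 0.58 was not called. Aminoadipate reductase (gene01353), which reduces aminoadipate to its semialdehyde, had 56.3 TPM in the mutant and 5.67 TPM in the wild type, a 9.92-fold ratio. Its activating phosphopantetheinyl transferase (gene09272) had 24.5 TPM in the mutant and 9.45 TPM in the wild type, with a log2 ratio of 1.28 that became 0.56 after rescaling by the median ratio and was then no longer called. Saccharopine dehydrogenase (gene05290), which couples the semialdehyde to glutamate, was the most abundant gene of the route in the wild type, at 355 TPM in the mutant and 84.6 TPM in the wild type. The lysine-forming saccharopine dehydrogenase that ends the route was not matched by orthology number here. A gene with mixed annotation (gene08759), a saccharopine dehydrogenase by its Swiss-Prot hit and a chromatin remodelling subunit by its Nr hit, had 104 TPM in the mutant and 34.3 TPM in the wild type. In the other direction, a gene with a best hit to saccharopine oxidase (gene08570) had 34.7 TPM in the mutant and 141 TPM in the wild type; it was met by its name and was in none of the lists.

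Of the 7 genes on the leucine list, 6 were higher in the mutant at day 14 by 2-fold or more, 5 of them by 4-fold or more, and 1 was lower. Among all tested genes these shares were 40.7%, 18.1% and 14%. Without 3-isopropylmalate dehydrogenase, which was chosen on this contrast, 5 of 6 were higher by 2-fold and 4 of 6 by 4-fold. The list's median log2 ratio was 2.45, or 2.39 without 3-isopropylmalate dehydrogenase. 2-Isopropylmalate synthase (gene07102), which opens the leucine branch and in yeast is inhibited by leucine, had 69.2 TPM in the mutant and 11.8 TPM in the wild type. 3-Isopropylmalate dehydratase (gene04412), the enzyme just before the dehydrogenase, had 273 TPM in the mutant and 3.70 TPM in the wild type. That 73.7-fold ratio was the largest of the lysine, leucine and isoleucine/valine lists, above that of 3-isopropylmalate dehydrogenase itself.

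The last step, transamination, was covered by 4 genes with the same orthology number. A branched-chain aminotransferase (gene07718) had 219 TPM in the mutant and 42.9 TPM in the wild type. A second one (gene00607) had 142 TPM in the mutant and 47.4 TPM in the wild type, with a log2 ratio of 1.56 that became 0.80 after rescaling by the median ratio. The others had a best hit to the aminotransferase lcsP. Of these, gene04316 had 103 TPM in the mutant and 15.3 TPM in the wild type, and gene04007, the lower member of the list, had 9.08 TPM in the mutant and 23.9 TPM in the wild type. A further gene with an Nr hit to 3-isopropylmalate dehydrogenase but no orthology number (gene00656) did not exceed 0.66 TPM in any library, so gene06698 held nearly all of the TPM given that name.

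The isoleucine/valine list holds the enzymes that supply the leucine branch with 2-ketoisovalerate. It also holds genes with the orthology number of threonine dehydratase, which starts isoleucine synthesis instead. In the mutant at day 14, 6 of its 8 genes were at least 2-fold higher, 5 of them at least 4-fold, and 0 were lower. Among all tested genes these shares were 40.7%, 18.1% and 14%. The median log2 ratio was 3.01. Ketol-acid reductoisomerase (gene08883), the second common step, reached 848 TPM in the mutant against 19.2 TPM in the wild type, a 44.3-fold ratio. The catalytic subunit of acetolactate synthase (gene08733), the first common step, had 194 TPM in the mutant and 8.65 TPM in the wild type. Its small, regulatory subunit (gene06799) had 129 TPM in the mutant and 86.8 TPM in the wild type, within 2-fold. The 2 subunit genes thus differed in ratio, 22.4-fold against 1.48-fold.

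A pair of genes for dihydroxy-acid dehydratase, which makes the keto acids of valine and isoleucine, were both higher. One (gene03740) had 61.0 TPM in the mutant and 1.59 TPM in the wild type, and the other (gene04107) had 82.6 TPM in the mutant and 5.67 TPM in the wild type. Threonine dehydratase (gene09620), which starts isoleucine synthesis, had 40.7 TPM in the mutant and 7.11 TPM in the wild type. Genes with the same orthology number but best hits to serine racemase had 74.9 TPM in the mutant and 18.4 TPM in the wild type (gene07853), and 5.95 TPM in the mutant and 8.07 TPM in the wild type (gene08255). The 3 lists together held 23 genes, or 21 without homocitrate synthase and 3-isopropylmalate dehydrogenase, which were chosen on this contrast. Of these 21, 17 reached 2-fold in favour of the mutant at day 14, 13 at least 4-fold and 5 at least 16-fold. Of all tested genes, 2.29% were at least 16-fold higher. After rescaling by the median ratio, homocitrate synthase was still at a log2 ratio of 4.19 and 3-isopropylmalate dehydrogenase at 4.01.

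**Figure D2:**
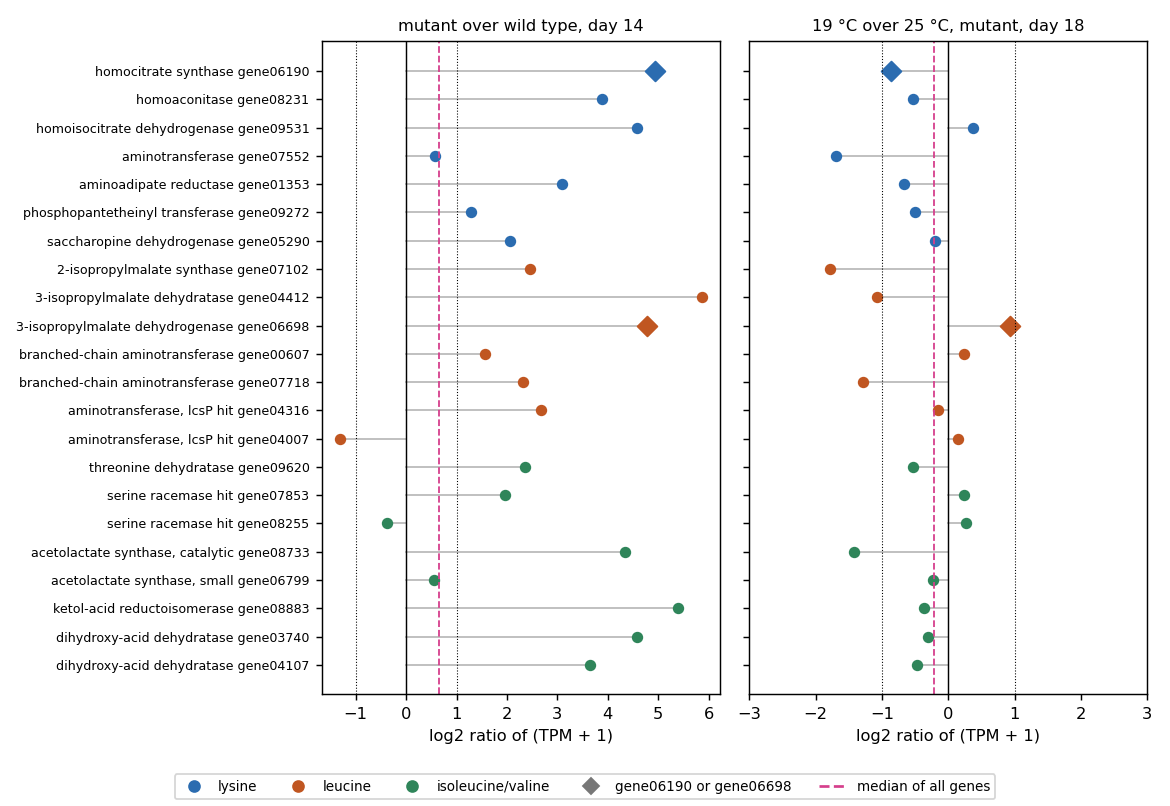
Log2 ratio of TPM plus 1 (horizontal axis) for 22 of the 23 genes of lysine, leucine and isoleucine/valine synthesis, in the mutant over the wild type at day 14 (left) and in the mutant at 19 °C over 25 °C at day 18 (right); dotted lines mark 2-fold, the dashed line the median of all genes (0.64 and -0.21), and diamonds homocitrate synthase and 3-isopropylmalate dehydrogenase. On the left 18 of those drawn, the diamonds chosen on this contrast among them, lie beyond 2-fold on the mutant side, beside 40.7% of all tested genes. On the right 5 lie beyond 2-fold on the 25 °C side, near the 21.4% of all tested genes. On the 19 °C side 0 do, beside 10.9%.

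The citrate cycle enzymes that share substrates or ancestry with the pair were read from 7 genes. Of these, 3 passed 2-fold in favour of the mutant at day 14, near the 40.7% of all tested genes. In favour of the wild type 0 passed, beside 14% of all tested genes. Their median was 0.67 on the log2 scale, close to that of all genes. After rescaling by the median ratio 2 were higher and 3 lower, beside 2281 higher and 2385 lower of all 9272 tested genes. Citrate synthase (gene07675), which joins acetyl-CoA to oxaloacetate much as homocitrate synthase joins it to 2-oxoglutarate, had 465 TPM in the mutant and 624 TPM in the wild type. The NADP-dependent isocitrate dehydrogenase (gene08877) had the largest ratio of these, at 423 TPM in the mutant and 64.7 TPM in the wild type. Subunit 1 of the NAD-dependent enzyme (gene04268), a relative of 3-isopropylmalate dehydrogenase, had the smallest, at 366 TPM in the mutant and 566 TPM in the wild type. Rescaling by the median ratio brought its log2 ratio from -0.63 to -1.40 and that of citrate synthase from -0.42 to -1.20, so their calls depend on the scaling.

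Genes of leucine breakdown, the opposite process, were also higher in the mutant at day 14. All 8 on that list were at least 2-fold higher and 6 at least 4-fold, with a median log2 ratio of 2.83, beside 40.7% and 18.1% of all tested genes and a median of 0.64. The enoyl-CoA hydratase gene with the orthology number of methylglutaconyl-CoA hydratase (gene00168) had 162 TPM in the mutant and 2.57 TPM in the wild type. Isovaleryl-CoA dehydrogenase (gene09112), which follows the decarboxylation of the leucine keto acid, had 61.5 TPM in the mutant and 2.87 TPM in the wild type. The smallest ratio was that of the alpha subunit of methylcrotonoyl-CoA carboxylase (gene08817), at 102 TPM in the mutant and 43.3 TPM in the wild type, which rescaling by the median ratio left uncalled at 0.45. Genes of leucine synthesis and of leucine breakdown thus stood at higher TPM in the same mutant library.

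Among 58 genes for the synthesis of other amino acids, 57 passed the filter at day 14. Of these, 33 passed 2-fold in favour of the mutant and 2 in favour of the wild type, beside 40.7% and 14% of all tested genes. Their median log2 ratio was 1.45, between that of all genes and those of the lysine and leucine lists. Homocysteine synthase (gene07510), of the sulfur amino acid route, had the largest ratio, at 177 TPM in the mutant and 3.65 TPM in the wild type. A cytoplasmic aspartate aminotransferase (gene10364) had the smallest, at 26.4 TPM in the mutant and 138 TPM in the wild type. Rescaling by the median ratio left 25 higher and 10 lower, beside 2281 higher and 2385 lower of all 9272 tested genes. With homocitrate synthase and 3-isopropylmalate dehydrogenase left out, 4 of 7 lysine genes and 4 of 6 leucine genes were higher at 4-fold, beside 23 of 57 for the other amino acids. At 2-fold the counts were 6 of 7, 5 of 6 and 33 of 57, and the differences were not tested.

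The regulators of these routes were read from 4 genes. Of these, 3 passed 2-fold in favour of the mutant at day 14 and 0 in favour of the wild type, beside 40.7% and 14% of all tested genes. Cross-pathway control protein A (gene00597), the mould counterpart of yeast Gcn4, had 2060 TPM in the mutant and 427 TPM in the wild type, a 4.82-fold ratio. The leucine regulator LEU3 (gene03815) had 46.7 TPM in the mutant and 12.0 TPM in the wild type. The kinase GCN2 (gene05194), which in yeast senses uncharged transfer RNA, had 11.4 TPM in the mutant and 13.3 TPM in the wild type, within 2-fold. The gene with the orthology number of the ribosome-bound regulator CPC2 (gene03048) had 766.1 TPM in the mutant and 352 TPM in the wild type, a call that rescaling by the median ratio ended (0.34). Of the 4 genes with orthology numbers of lysyl- and leucyl-tRNA ligases, which load these amino acids for translation, 2 were higher and 0 lower, beside 40.7% and 14% of all tested genes. Among the higher ones, gene09846 has a best hit to transcription factor BYE1, at 9.3 TPM in the mutant and 1.38 TPM in the wild type. The leucine tRNA ligase (gene06254) had 17.2 TPM in the mutant and 18.9 TPM in the wild type, within 2-fold. A lysine tRNA ligase of the cla4 type (gene09966) had 112 TPM in the mutant and 30.4 TPM in the wild type, whereas another lysine tRNA ligase (gene06758) had 34.5 TPM in the mutant and 50.5 TPM in the wild type, a log2 ratio of -0.54 that became -1.30 after rescaling by the median ratio.

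Across this same strain comparison, genes of very long proteins had a median log2 ratio of 0.94, with 6 of 16 higher and 0 lower, near the 40.7% higher among all tested genes. Genes of very short proteins had a median of -0.01, with 4 of 24 higher and 4 lower. After rescaling by the median ratio, 3 long-protein genes were higher and 0 lower, and 0 short-protein genes were higher and 10 lower. Over all 9272 tested genes, 2281 were then higher and 2385 lower. Where 10 TPM was reached in one of the libraries, glutamate synthase (gene07398) was the long-protein gene with the largest ratio, at 47.7 TPM in the mutant and 1.69 TPM in the wild type, and the splicing helicase brr2 (gene07602) had the smallest, at 23.2 TPM in the mutant and 24.9 TPM in the wild type. Among short ones these were LSm8 (gene00586), at 103 TPM in the mutant and 30.01 TPM in the wild type, and ribosomal protein S30 (gene06825), at 5897 TPM in the mutant and 22503 TPM in the wild type. A list of spore and surface genes, meant to reflect other cell forms, was drawn up by best-hit names alone. On it 3 of 6 were higher and 1 lower, near the 40.7% and 14% of all tested genes. The spore wall gene DIT1 (gene05643) had 155 TPM in the mutant and 0.35 TPM in the wild type. The sporulation kinase pit1 (gene10877) had 31.1 TPM in the mutant and 90.6 TPM in the wild type. The part of transcript length or of cell form in the ratios of homocitrate synthase and 3-isopropylmalate dehydrogenase was not tested.

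Fermentation temperature was addressed by the pair of day 18 libraries of the mutant, at 19 °C and 25 °C. Here the members stood on opposite sides. Homocitrate synthase had 207 TPM at 19 °C against 376 TPM at 25 °C, a log2 ratio of -0.86. 3-Isopropylmalate dehydrogenase had 228 TPM at 19 °C against 119 TPM at 25 °C, a log2 ratio of 0.93. Neither reached 2-fold in the deposited values, where 10.9% of 9064 tested genes were higher at 19 °C and 21.4% lower. The ratio of 3-isopropylmalate dehydrogenase lay so near the threshold that rescaling decided the call, at 1.12 by the median ratio and 1.004 without the 20 highest genes.

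On the lysine list, 7 of 8 log2 ratios of 19 °C over 25 °C were below 0 but only the aminotransferase gene07552 was called, at 28.4 TPM at 19 °C against 93.8 TPM at 25 °C. The median was -0.60, beside -0.21 for all genes. Homoisocitrate dehydrogenase (gene09531) was the one above 0, at 150.4 TPM at 19 °C against 116 TPM at 25 °C.

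On the leucine list 3 of 7 genes were at least 2-fold lower at 19 °C and 0 higher, beside 21.4% and 10.9% of all tested genes. 2-Isopropylmalate synthase (gene07102) had 20.6 TPM at 19 °C against 73.7 TPM at 25 °C, and 3-isopropylmalate dehydratase (gene04412) had 106 TPM at 19 °C against 224 TPM at 25 °C. The third was the branched-chain aminotransferase gene07718, at 116 TPM at 19 °C against 286.2 TPM at 25 °C. Within the leucine branch the dehydrogenase thus stood on the other side from both enzymes that precede it. The list's median of -0.15 became 0.03 after rescaling by the median ratio, and the dehydratase, at -1.08, became -0.89 and was then not called.

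In the isoleucine/valine list 1 of 8 was lower at 19 °C, beside 21.4% of all tested genes. It was the acetolactate synthase catalytic subunit (gene08733), at 113 TPM at 19 °C against 305 TPM at 25 °C. The regulator LEU3 (gene03815) had 12.9 TPM at 19 °C against 32.8 TPM at 25 °C, whereas cross-pathway control protein A (gene00597) had 1775 TPM at 19 °C against 2335 TPM at 25 °C, within 2-fold. Of the citrate cycle genes 0 of 7 were called in either direction at the 2-fold threshold, where NADP-dependent isocitrate dehydrogenase (gene08877) had the largest ratio, at 219.6 TPM at 19 °C against 168 TPM at 25 °C. Of the leucine breakdown genes 1 of 8 was higher at 19 °C and 0 lower, a share near the 10.9% of all tested genes. It was the alpha subunit of 2-oxoisovalerate dehydrogenase (gene09882), at 41.9 TPM at 19 °C against 12.2 TPM at 25 °C. The smallest ratio was that of the acyltransferase of the same complex (gene07362), at 49.0 TPM at 19 °C against 56.4 TPM at 25 °C. Among the other amino acid genes 2 of 56 were higher and 10 lower at 19 °C, beside 10.9% and 21.4% of all tested genes. Cytosolic serine hydroxymethyltransferase (gene01750) had the smallest ratio, at 95.1 TPM at 19 °C against 390 TPM at 25 °C. The largest was that of the histidine synthesis gene gene09051, at 19.01 TPM at 19 °C against 6.07 TPM at 25 °C. Of the genes with lysyl- and leucyl-tRNA ligase orthology numbers 3 of 4 were lower, beside 21.4% of all tested genes. Among them were the BYE1 hit gene09846 and gene09966, the latter at 29.1 TPM at 19 °C against 73.6 TPM at 25 °C. Of 5 spore and surface genes, 2 were lower at 19 °C and 0 higher, beside 21.4% and 10.9% of all tested genes. The sporulation kinase pit1 (gene10877) had 9.50 TPM at 19 °C against 67.3 TPM at 25 °C. Conidiation-specific protein 10 (gene06873) had 924 TPM at 19 °C against 635 TPM at 25 °C. For this temperature contrast the long-protein list had 0 of 16 higher and 8 lower (median -1.07). The short-protein list had 2 of 24 higher and 0 lower (median 0.17). Rescaling by the median ratio gave 7 long-protein genes lower and 5 short-protein genes higher. Over all 9064 tested genes, 1584 were then lower and 1318 higher. With the same limit of 10 TPM, glutamate synthase (gene07398), at 25.4 TPM at 19 °C against 97.2 TPM at 25 °C, had the smallest long-protein ratio, and the alpha subunit of fatty acid synthase (gene01373), at 215 TPM at 19 °C against 219 TPM at 25 °C, the largest. Among short ones these were ribosomal protein L43 (gene02732), at 4792 TPM at 19 °C against 7417 TPM at 25 °C, and LSm3 (gene10497), at 63.7 TPM at 19 °C against 18.9 TPM at 25 °C. The part of these lists in the ratios of homocitrate synthase and 3-isopropylmalate dehydrogenase between temperatures was not tested.

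**Figure D3:**
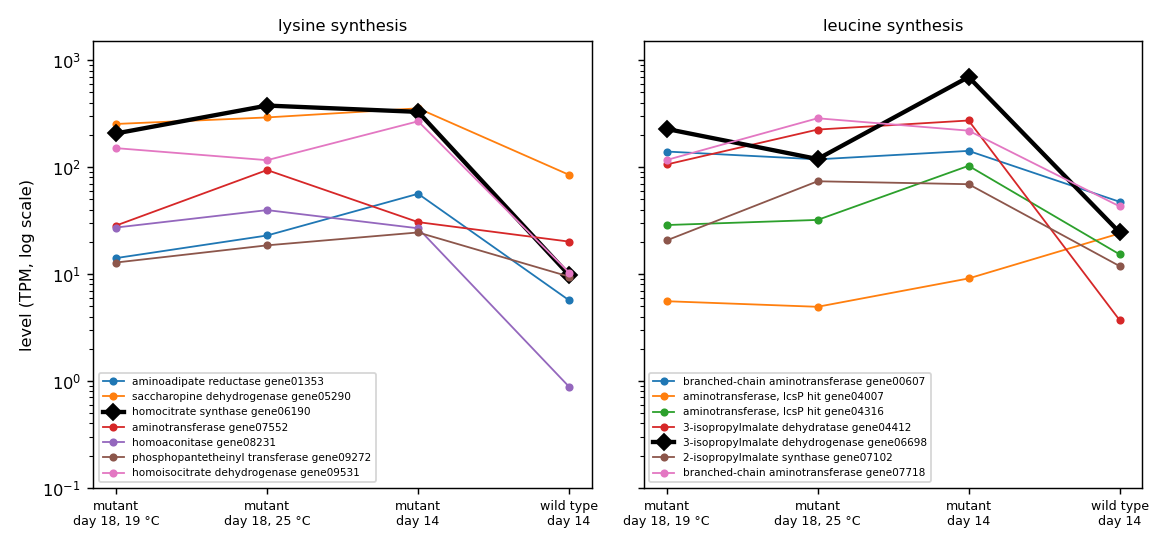
Level in TPM (vertical axis, log scale) of 7 of the 8 lysine genes (left) and the 7 leucine genes (right) in the 4 libraries; each line joins the values of 1 gene and has no meaning between libraries, and the thick black line is homocitrate synthase or 3-isopropylmalate dehydrogenase. The 7 lysine genes drawn and 6 of 7 leucine genes are lowest in the wild type, beside 43% of all 9508 genes that reached 1 TPM. The black lines are among them and were chosen for standing above the wild type at day 14. 3-Isopropylmalate dehydrogenase is the one of its branch whose 25 °C value (119 TPM) lies furthest below its day 14 value (697 TPM).

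The day 18 libraries of the mutant were compared with its day 14 library, which both share as the baseline, so the pairs of values below are not independent. The day 14 title gives no temperature, so day and temperature cannot be told apart in these pairs. Homocitrate synthase had 376 TPM at day 18 and 25 °C, 207 TPM at day 18 and 19 °C, and 328 TPM at day 14. Its log2 ratios against day 14 were 0.20 (25 °C) and -0.67 (19 °C). It was called in neither. 3-Isopropylmalate dehydrogenase had 119 TPM at day 18 and 25 °C and 697 TPM at day 14, a log2 ratio of -2.54. That was lower than the ratio of all but 1.62% of 9236 tested genes, of which 24.4% were at least 2-fold lower, 4.68% at least 4-fold lower and 14.1% at least 2-fold higher at day 18. At 19 °C it had 228 TPM at day 18, a log2 ratio of -1.61, in a comparison where 27.9% of 9119 tested genes were lower and 7.97% higher.

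Against day 14, the leucine list at day 18 had 0 of 7 higher and 2 lower at 25 °C, beside 14.1% and 24.4% of all tested genes. At 19 °C it had 0 higher and 4 lower, beside 7.97% and 27.9%. The lower genes at day 18 and 25 °C were 3-isopropylmalate dehydrogenase and the lcsP-type aminotransferase gene04316, the latter at 32.04 TPM against 103 TPM at day 14. The dehydratase (gene04412), at 224 TPM at day 18 and 273 TPM at day 14, and the synthase (gene07102), at 73.7 TPM at day 18 and 69.2 TPM at day 14, were within 2-fold there. At 19 °C these 2 genes were called lower too, at 106 and 20.6 TPM, though the call of the dehydratase ended after rescaling by the median ratio (-0.80).

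The lysine list had 1 of 8 higher and 2 lower at day 18 and 25 °C, near the 14.1% and 24.4% of all tested genes. The higher gene was the aminotransferase gene07552, at 93.8 TPM at day 18 and 30.6 TPM at day 14. The lower ones were aminoadipate reductase (gene01353), at 22.9 TPM at day 18 and 56.3 TPM at day 14, and homoisocitrate dehydrogenase (gene09531), at 116 TPM at day 18 and 268 TPM at day 14. Both calls ended after rescaling by the median ratio, at -0.90 and -0.84. At day 18 and 19 °C the list had 0 higher and 1 lower, beside 7.97% and 27.9% of all tested genes. The lower gene was again aminoadipate reductase, at 14.1 TPM. For leucine breakdown 0 of 8 were higher and 7 lower at day 18 and 25 °C, and 0 higher and 2 lower at 19 °C. Rescaling by the median ratio left 3 lower at 25 °C and 0 at 19 °C, beside 1365 of 9236 and 970 of 9119 tested genes.

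Over all 4 libraries the wild type was lowest for 8 of 8 lysine genes, 6 of 7 leucine genes and 7 of 8 isoleucine/valine genes, where it was lowest for 43% of the 9508 genes that reached 1 TPM in any library. Homocitrate synthase and 3-isopropylmalate dehydrogenase are in the first of these counts and the next, and were chosen for standing above the wild type at day 14. The counts are therefore given as a description. The descending order seen for homocitrate synthase, 25 °C at day 18, then day 14, then 19 °C, then the wild type, was shared by 4 of the other 22 genes of the 3 lists and by 10.5% of all 9508. They were 2-isopropylmalate synthase, the aminotransferases gene07552 and gene07718, and the acetolactate synthase catalytic subunit. The order of 3-isopropylmalate dehydrogenase, day 14, then 19 °C, then 25 °C, then the wild type, was shared by 3 of the other 22 and by 9.4% of all. These were homoisocitrate dehydrogenase, the branched-chain aminotransferase gene00607 and the serine racemase hit gene07853. Neighbouring libraries in these orders have no measured spread, so whether they differ beyond error is unknown.

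Likeness of pattern was measured as the root mean square difference, over the 4 libraries, between profiles of log2 of TPM plus 1 centred on their own mean, among 5227 other genes with an informative best hit and at least 10 TPM in a library. The genes most like homocitrate synthase were an L-sulfolactate dehydrogenase hit (gene06033), a La protein homolog (gene06466), phosphoenolpyruvate carboxykinase (gene09954), a low affinity ammonium transporter (gene10434) and dityrosine transporter 1 (gene05640), at differences of 0.162 to 0.210. Phosphoenolpyruvate carboxykinase, the entry step of glucose synthesis, was the most abundant of them, at 179 TPM in the mutant at day 18 and 19 °C, 301 TPM at day 18 and 25 °C, 305 TPM at day 14 and 6.07 TPM in the wild type. Among the genes of the 3 lists, ketol-acid reductoisomerase (gene08883) came nearest to homocitrate synthase, in place 11 at 0.286, then the acetolactate synthase catalytic subunit (gene08733), in place 13 at 0.297, and 3-isopropylmalate dehydratase (gene04412), in place 22 at 0.343. 3-Isopropylmalate dehydrogenase was in place 548 at 1.15. The day 14 pair on which both genes were chosen enters this measure. A near place therefore partly restates a similar day 14 ratio, here and below, and is given as a description.

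The genes most like 3-isopropylmalate dehydrogenase were an AhpD-like gene (gene09252), a 6-methylsalicylic acid decarboxylase hit (gene05350), a 4-carboxymuconolactone decarboxylase-like gene (gene04182), an esterase hit (gene00831) and an L-2,3-butanediol dehydrogenase hit (gene06174), at differences of 0.206 to 0.280. The last had 142 TPM in the mutant at day 18 and 19 °C, 89.6 TPM at day 18 and 25 °C, 306 TPM at day 14 and 13.7 TPM in the wild type. From the 3 lists, a dihydroxy-acid dehydratase (gene03740) came nearest, in place 35 at 0.471, and homoisocitrate dehydrogenase (gene09531) followed in place 50 at 0.523, whereas 3-isopropylmalate dehydratase was in place 1201.

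The table gives no coordinates, so position was read only as gene number. Of the 6 genes numbered next to homocitrate synthase, 3 were higher in the mutant at day 14 by 2-fold or more, 0 by 4-fold or more, and 0 were lower, beside 40.7%, 18.1% and 14% of all tested genes. Nearest to it, a WD repeat gene (gene06191) had 1.04 TPM in the mutant and 1.16 TPM in the wild type, and arginyl-tRNA protein transferase (gene06189) had 41.1 TPM in the mutant and 48.4 TPM in the wild type. None of the 6 shared the order of the 4 libraries seen for homocitrate synthase, beside 10.5% of all 9508 genes. The higher ones were the mitochondrial phenylalanine tRNA ligase gene06187, the diphosphoinositol phosphatase gene06188 and the arabinofuranosidase gene06193, at ratios of 1.16, 1.80 and 1.86 on the log2 scale.

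Of the 6 genes numbered next to 3-isopropylmalate dehydrogenase, 5 were higher in the mutant at day 14 by 2-fold or more and 4 by 4-fold or more, with 0 lower, against the same shares of all genes. A cytochrome P450 gene (gene06699) had 13.4 TPM in the mutant at day 18 and 19 °C, 8.32 TPM at day 18 and 25 °C, 25.9 TPM at day 14 and 2.03 TPM in the wild type. An oxidoreductase gene with a best hit to asL5 (gene06696) had 55.2 TPM at day 18 and 19 °C, 30.8 TPM at day 18 and 25 °C, 113 TPM at day 14 and 25.4 TPM in the wild type. A monooxygenase gene (gene06700) had 6.80 TPM at day 18 and 19 °C, 3.32 TPM at day 18 and 25 °C, 11.1 TPM at day 14 and 1.28 TPM in the wild type. Beside 9.4% of all 9508 genes, these 3 of 6 neighbours had the same order of libraries as 3-isopropylmalate dehydrogenase, at far lower levels. The adjoining gene06697, an uncharacterized protein by its best hit, did not. It had 12.96 TPM at day 18 and 19 °C, 93.6 TPM at day 18 and 25 °C, 21.6 TPM at day 14 and 2.92 TPM in the wild type. A transporter gene (gene06701) had 3.87 TPM in the mutant at day 14 and 1.32 TPM in the wild type, and gene06695, the one not called, had 245 TPM in the mutant and 155 TPM in the wild type.

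**Figure D4:**
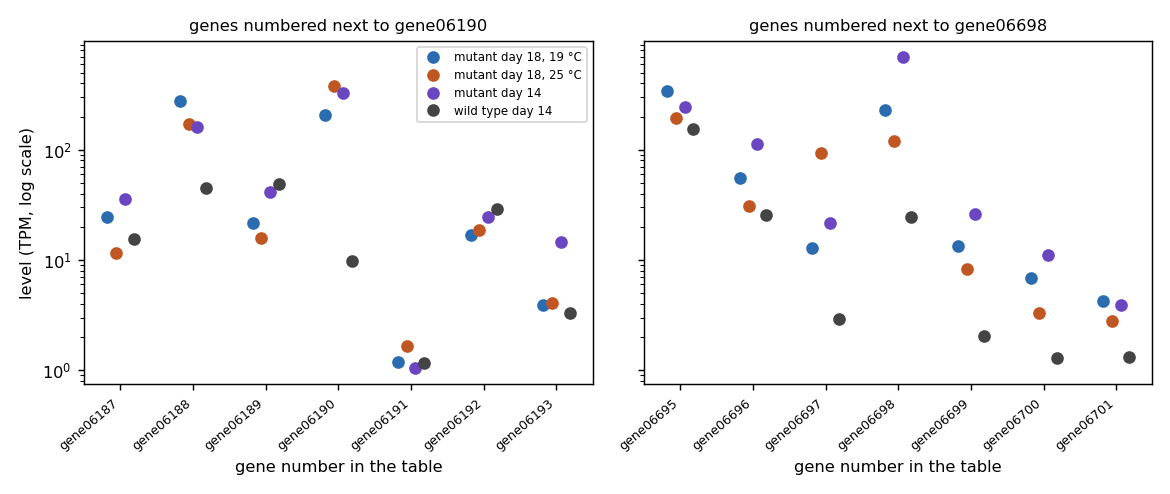
Level in TPM (vertical axis, log scale) of homocitrate synthase (left) and 3-isopropylmalate dehydrogenase (right) with the 3 genes numbered before and after each, 1 point per library. Around homocitrate synthase the wild-type point is lowest for 2 of 6 neighbours, near the 43% of all 9508 genes that reached 1 TPM in a library. Around 3-isopropylmalate dehydrogenase it is lowest for 6 of 6. There gene06696, gene06699 and gene06700 show the library order of 3-isopropylmalate dehydrogenase, beside 9.4% of all 9508 genes.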

How the data were processed

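RNA-seq measured total RNA of mycelium, with libraries built by a SMARTER mRNA-Seq method according to the labels' protocols. The authors deposited TPM values rounded to 2 decimals; read depth cannot be recovered from them. The aligner, counter, genome build and annotation: not given in the sources used here. Gene names are those of best database hits (Swiss-Prot, then Nr) or orthology numbers in the deposited table, and function was not checked. Library names in the labels tied columns to samples.

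Log2 ratios used a pseudocount of 1 TPM, a filter of 1 TPM in either library and a 2-fold call (Python 3.11.15, pandas 2.3.3); folds are plain ratios of TPM. No test was run, with 1 library per group. The steps were checked on simulated data. Identical values in all 4 libraries were found for 166 genes, of which 0 are genes or neighbours described here.

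Members, lists and rules were chosen with earlier results of these data known. Lists are sets of orthology numbers, and for regulators and spore genes also of names. Named genes are all of the lysine, leucine and isoleucine/valine lists, the extremes at 10 TPM or more of the others, 3 neighbours on each side and the 5 most alike. Of these, 2 enzymes counted in the lists are not reported here by name. Citrate synthase, cpc2, isovaleryl-CoA dehydrogenase, gene00656, gene06254, gene08570, gene08759 and gene09846 were picked after their values were seen. Alternatives were pseudocounts of 0.1 and 5, no filter, a 10 TPM filter, a 4-fold call and rescaling by the median ratio or to 1000000 without the 20 highest genes.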

Additional observations from a re-analysis of the deposited data

Results flagged for a closer look

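Homocitrate synthase (gene06190) had log2 ratios of opposite sign for day 18 over day 14 in the mutant, 0.20 at 25 °C and -0.67 at 19 °C, which is what drew attention to it. Both are within 2-fold and share the day 14 library, and the difference between them was not tested.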

How the results depend on the processing

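Alternative values numbered 98, computed for the ratios of both genes, the lysine and leucine counts and the counts over all genes. Of these, 86 kept their side of the threshold or stayed within 1.5 times. Those without a filter could not change, because a gene under 1 TPM in both libraries cannot reach 2-fold with 1 TPM added. The day 14 ratio of homocitrate synthase lay between 4.19 and 5.06 on the log2 scale, and that of 3-isopropylmalate dehydrogenase between 4.01 and 4.82. For 19 °C over 25 °C, 3-isopropylmalate dehydrogenase passed 2-fold after rescaling by the median ratio (1.12) and without the 20 highest genes (1.004). The leucine list then had 1 higher gene in place of 0 under each, beside 1318 and 1124 of all 9064 tested genes. A 4-fold call ended that of 3-isopropylmalate dehydrogenase at 19 °C against day 14 (-1.61). Leaving out aminotransferases of the lcsP type, an alternative chosen after seeing the data, kept both leucine counts of higher genes within 1.5 times. Genes called higher over the whole table numbered 3772 in the mutant against the wild type, 1677 at 4-fold and 2281 after rescaling by the median ratio. For 19 °C over 25 °C they numbered 989, 642 with a pseudocount of 5 TPM and 234 at 4-fold. Against day 14 they numbered 1303 at 25 °C, 407 at 4-fold, and 727 at 19 °C, 217 at 4-fold and 1408 after rescaling by the median ratio. Higher genes made up 74.4%, 33.7%, 36.7% and 22.2% of calls in these 4 comparisons, and 48.9%, 45.4%, 57% and 59.2% after rescaling by the median ratio. The cause was not tested. Depth limits are unknown in TPM. No paired analysis was possible because each group has 1 library and no replicate numbers.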
